A study of Mus musculus with 5 samples.

Results

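Between the exons that nearly every transcript of a gene holds and those that nearly every transcript skips lie exons of intermediate inclusion, and in mouse left ventricle 225 of these stayed within a narrow range of inclusion in every library measured. The measure is Psi, the deposited estimate of the part of a gene's transcripts in which the exon is present, on a scale from 0 to 1. The 225 exons were selected on these measured values: each was in all 6 of the authors' comparison tables, had at least 20 informative reads in every library, had Psi from 0.10 to 0.90 in all 5 libraries, and had a highest Psi no more than 0.12 above its lowest. Informative reads are those that fit the including isoform alone or the skipping isoform alone. Of the 6331 cassette exons in all 6 tables, 4113 met the read limit, 972 of those were intermediate, and the 225 stable exons are 23.1% of the intermediate ones and 3.55% of all. They form 215 separate loci, because 19 of them overlap another at 9 loci, and they lie in 202 named genes, with 4 exons left without a name. Since the rule used Psi of both groups, the size of the differences between the groups in the stable exons was limited by the choice, and these differences are given as a description that no test supports.

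The study sequenced left ventricle RNA from C57BL/6 mice that were 12 weeks old at sampling. From an age of 8 weeks the mice had received an injection on each of 5 days, of citrate buffer in the Control group (2 libraries) or of 70 mg/kg streptozotocin in the STZ group (3 libraries). Streptozotocin kills pancreatic beta cells, the source of insulin, and is widely used to make mice diabetic, and blood glucose was not analysed here. The library codes in the tables match no sample title, so which libraries are Control follows only from the sizes of the groups (2 and 3). Control and STZ codes belong to different naming series, so STZ and whatever else separates the series cannot be told apart. The labels do not say that each sample is a separate animal, so the spread between libraries may be partly technical.

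A cassette exon is spliced into some mature transcripts and skipped in others. When its length is a multiple of 3 and it lies in the coding region, both forms keep the reading frame and a gene makes 2 proteins that differ by a short peptide. Other cassette exons shift the frame or carry a stop codon and lead to transcripts that nonsense-mediated decay, the cell's disposal of messages with an early stop, tends to remove. Inclusion is set by the strength of the splice sites and by RNA-binding proteins such as those of the Celf, Mbnl and Rbfox families, and in the heart it is known to shift during postnatal development and in disease. An intermediate Psi in bulk tissue can come from a mixture inside each cell or from cell types that splice the exon differently.

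The exons of the amyloid precursor protein family are shown first, since App and its relative Aplp2 each hold 2 stable exons. The following sequences are written 5′ to 3′ in the sense of the transcript, with the cassette exon in capitals and 15 bases of the neighbouring exons in lower case. They were read from GENCODE M21 transcripts (build GRCm38), while the coordinates are in mm9, as the tables give them, with the first base of a chromosome as 1.
App 168 nt, chr16:85043821-85043988, minus strand: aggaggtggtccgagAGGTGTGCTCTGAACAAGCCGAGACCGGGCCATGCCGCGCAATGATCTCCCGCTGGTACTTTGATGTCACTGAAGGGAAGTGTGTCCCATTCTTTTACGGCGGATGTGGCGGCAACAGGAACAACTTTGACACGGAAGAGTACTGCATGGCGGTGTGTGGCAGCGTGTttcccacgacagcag
Aplp2 168 nt, chr9:30975146-30975313, minus strand: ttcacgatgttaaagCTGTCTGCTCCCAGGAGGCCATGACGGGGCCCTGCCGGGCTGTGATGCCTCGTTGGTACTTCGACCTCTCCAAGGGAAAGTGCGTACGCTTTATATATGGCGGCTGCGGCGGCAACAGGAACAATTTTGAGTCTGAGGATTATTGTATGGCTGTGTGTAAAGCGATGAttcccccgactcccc
App 54 nt, chr16:84971653-84971706, minus strand: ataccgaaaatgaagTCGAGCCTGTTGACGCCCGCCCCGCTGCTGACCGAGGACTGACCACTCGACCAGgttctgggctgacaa
Aplp2 36 nt, chr9:30963775-30963810, minus strand: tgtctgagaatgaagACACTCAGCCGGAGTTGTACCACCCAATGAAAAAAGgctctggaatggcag

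The 168 nt exons of both genes encode a Kunitz-type protease inhibitor domain. Aligned end to end without gaps, they were identical at 114 of 168 bases (67.9%). Psi of the App 168 nt exon was 0.71 in Control A, 0.70 in Control B, 0.64 in STZ A, 0.70 in STZ B and 0.72 in STZ C. STZ A was the lowest library, and the other STZ libraries lay within 0.02 of the Control libraries, so the groups overlapped. Psi of the Aplp2 168 nt exon was 0.62, 0.62, 0.61, 0.59 and 0.57 in the same order of libraries, both Control libraries and then STZ A to STZ C, which is used throughout. Here every STZ library was below both Control libraries, by a mean of 0.03. By the share of inclusion-only reads among informative reads the groups overlapped, with 0.919 and 0.938 in Control and 0.937, 0.933 and 0.920 in STZ. Skipping of the short exon farther towards the 3′ end of both genes is known to create an attachment site for a chondroitin sulphate chain. Psi of the App 54 nt exon was 0.30, 0.30, 0.33, 0.32 and 0.30, a mean of 0.30 in Control and 0.317 ± 0.015 (SD, n = 3) in STZ. That of the Aplp2 36 nt exon was 0.34, 0.37, 0.29, 0.34 and 0.28, and its groups met at 0.34. In left ventricle the Kunitz exon was thus the more included of the pair in both genes in all 5 libraries, and the short exon the less included. Not all of App was steady. Its 57 nt exon, outside the set, had 0.53 and 0.57 in Control and 0.73, 0.74 and 0.76 in STZ. The mean rose by 0.193 (adjusted p = 0.0139 by the limma test described below). The event of that exon shares bases with that of a stable exon, so their reads are not separate.

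Only 3 of the 225 exons had a spread of 0.02 or less, in H2-K1, Papola and Slc44a2, and 39 had a spread of 0.05 or less. The sequences of the first pair are shown because they held their ratio most closely.
H2-K1 39 nt, chr17:34133561-34133599, minus strand: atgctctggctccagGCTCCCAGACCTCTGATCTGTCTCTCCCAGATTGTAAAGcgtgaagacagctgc
Papola 63 nt, chr12:107071310-107071372, plus strand: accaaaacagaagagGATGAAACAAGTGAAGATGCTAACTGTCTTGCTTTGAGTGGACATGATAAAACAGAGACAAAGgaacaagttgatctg

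H2-K1 encodes a heavy chain of MHC class I, which presents peptides to cytotoxic T cells, and its 39 nt exon lies in the part that encodes the cytoplasmic tail. Psi was 0.83 in both Control libraries and 0.84 in all 3 STZ libraries, a difference of 1 unit of the last deposited digit. Over the 5 libraries 3988 reads fitted inclusion alone and 136 fitted skipping alone. Class I genes are close relatives of each other, so reads may be split between them and the H2-K1 values are uncertain. Reads of all classes on this event, in RPM (reads per 1000000 reads on all events), were 831.5 and 451.3 in Control and 1006, 1598 and 2134 in STZ. Papola encodes a poly(A) polymerase, which adds the tail to messenger RNAs, and Psi of its 63 nt exon was 0.86, 0.85, 0.86, 0.86 and 0.87. The groups overlapped at 0.86. Slc44a2, which encodes a choline transporter-like protein, had Psi of 0.10, 0.10, 0.12, 0.10 and 0.10 at its 128 nt exon, at the lower limit of the rule.

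Next by spread came exons of Uqcrh, App, Rapgef1 and Hnrnpd, at 0.03 each. Rapgef1 encodes an exchange factor that activates the GTPase Rap1, and Psi of its 258 nt exon was 0.87, 0.89, 0.86, 0.89 and 0.89. Hnrnpd encodes the RNA-binding protein AUF1, which binds AU-rich elements, and its 147 nt exon had Psi of 0.86, 0.89, 0.86, 0.88 and 0.87. Both genes had overlapping groups and more than 500 informative reads in each library. Emc10, part of the complex that inserts proteins into the endoplasmic reticulum membrane, had 0.19, 0.19, 0.22, 0.21 and 0.22 at its 87 nt exon, with each STZ library above both Control libraries. Zfp260, a zinc finger gene, had 0.89, 0.88, 0.87, 0.86 and 0.89 at a 195 nt untranslated exon, and the groups overlapped. The 222 nt untranslated exon of Serpinb6a, a protease inhibitor gene with close relatives, had 0.16, 0.15, 0.12, 0.14 and 0.14.

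**Figure D1:**
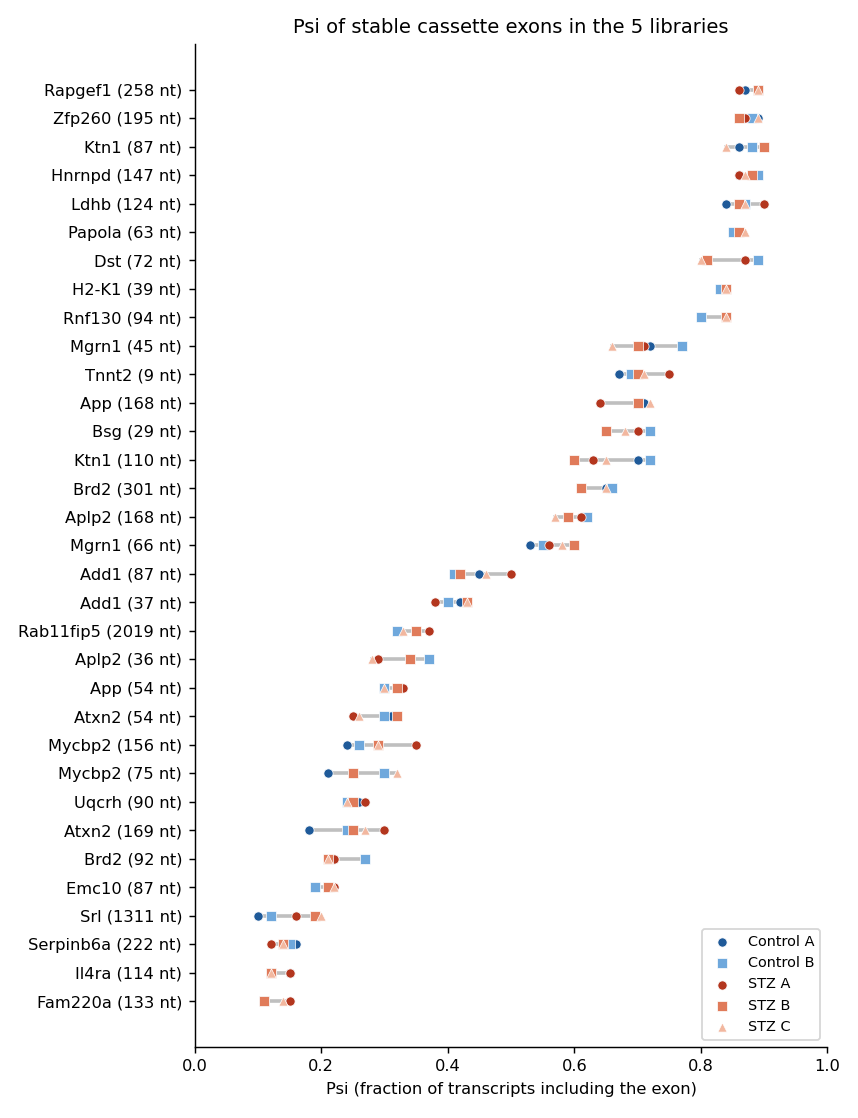
Psi of stable exons in each of the 5 libraries, for the loci with the smallest spread, those with most informative reads and those in genes that hold at least 2 stable loci. Points are libraries (circle and square in blue for Control, red shades for STZ) and grey lines join the lowest and highest. The H2-K1 points lie at 0.83 and 0.84, and those of the Ktn1 110 nt exon run from 0.60 to 0.72.

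The share of exons that met the rule was higher at greater depth. Of intermediate exons with 20 to 49 informative reads in the lowest library, 46 of 325 (14.2%) were stable. The share was 38 of 221 (17.2%) from 50 to 99 reads, 58 of 190 (30.5%) from 100 to 199 and 51 of 153 (33.3%) from 200 to 499. With 500 or more it was 32 of 83 (38.6%). The median stable exon had 147 informative reads in its lowest library and the median of the other 747 intermediate exons was 71. An exon with few reads that is missing from the set has not been shown to vary between libraries.

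**Figure D2:**
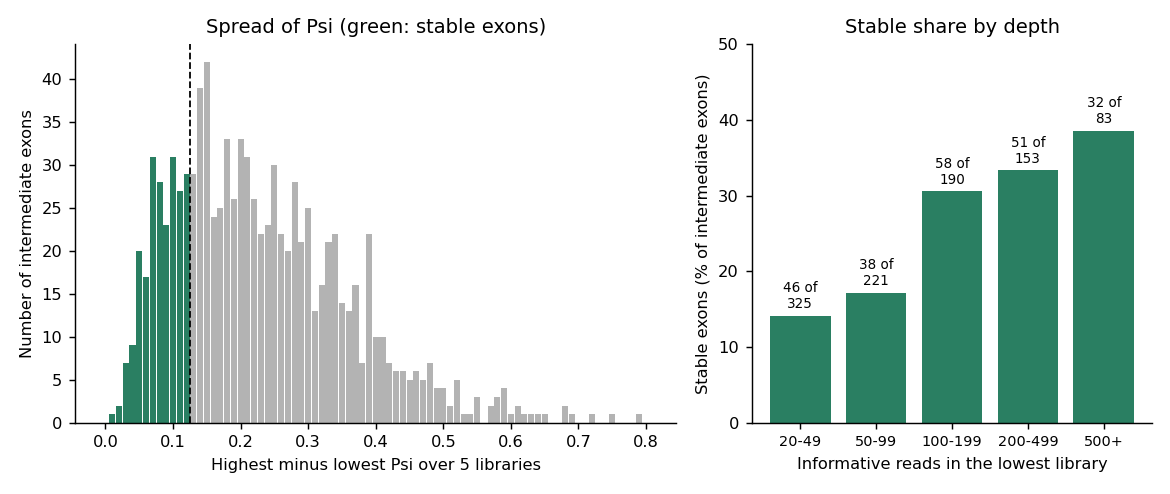
Left, the number of intermediate exons (y axis) by highest minus lowest Psi over the 5 libraries (x axis), with the 225 stable exons in green and the limit dashed. Right, the percentage of intermediate exons that were stable (y axis, from 0) by informative reads in the lowest library (x axis), with the counts over the bars, rising from 14.2% to 38.6%.

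The limit of 0.12 fell where spreads were common. In all, 29 exons had a spread of 0.12 and were kept, and 29 had 0.13 and were not. Just inside, with most reads, were Ktn1, Zfp207 and Pum2. The Zfp207 93 nt exon (a zinc finger gene of chromosome segregation) had Psi of 0.65, 0.66, 0.68, 0.77 and 0.70, with STZ B highest. Just outside were exons of D17Wsu92e, Hnrnpd and Ppp2r2d. The Hnrnpd 57 nt exon, in the same gene as one of the steadiest exons, had 0.65, 0.78, 0.65, 0.68 and 0.68, where Control B alone set the spread.

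Psi and the plain share of reads were not the same scale, and this bears on what an intermediate ratio rests on. The share of inclusion-only reads among informative reads is not corrected for length, and its mean over the libraries was above the mean Psi in all 225 stable exons. It differed from Psi by more than 0.2 in 105 of them. In 203 of the 225 (90.2%), at least 10 reads fitted inclusion alone and at least 10 fitted skipping alone over the 5 libraries, against 666 of the 747 other intermediate exons (89.2%). In the other 22 stable exons fewer than 10 reads in all fitted skipping alone. Uqcrh, which encodes a subunit of respiratory complex III, is the deepest of these: Psi of its 90 nt exon was 0.26, 0.24, 0.27, 0.25 and 0.24, but 25362 reads fitted inclusion alone and 2 fitted skipping alone. The steady Psi of Uqcrh is thus a deposited estimate with almost no read across the skipping junction. Fxyd1, the phospholemman gene that regulates the cardiac sodium pump, had Psi of 0.54, 0.49, 0.49, 0.53 and 0.46 at a 75 nt exon with 1784 inclusion-only and 0 skipping-only reads.

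The read shares, which the rule did not use directly, also had a spread of 0.12 or less in most of the set. The median spread of the share over the libraries was 0.0652 in the stable exons and 0.158 in the other intermediate exons. It was 0.12 or less in 173 of 225 (76.9%) and in 286 of 747 (38.3%). Exact 95% binomial (Clopper-Pearson) intervals of the 5 read shares had a point in common in 172 stable exons (76.4%) and in 305 of the others (40.8%). These intervals cover counting error only, since reads carry no molecular identifiers. The share comes from the reads that also feed Psi, so this is no independent support. The Maco1 268 nt exon had the widest share, with a spread of 0.356 beside a Psi spread of no more than 0.12.

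**Figure D3:**
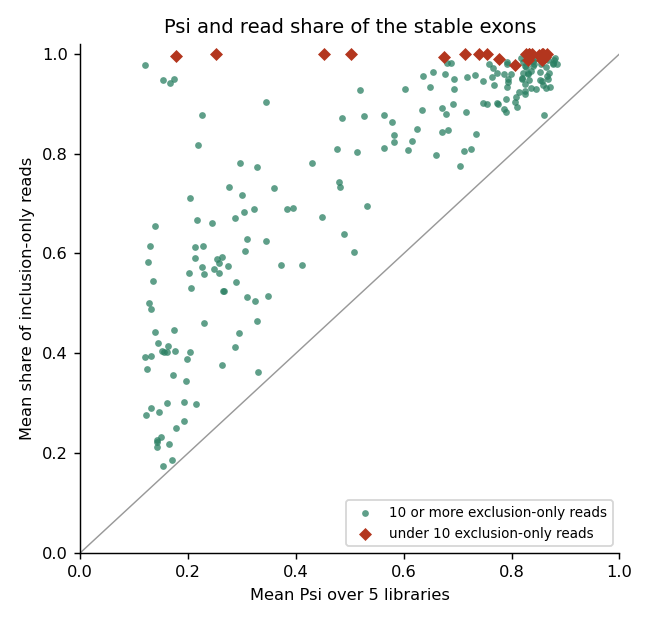
Mean share of inclusion-only reads (y axis) against mean Psi (x axis) over the 5 libraries for the 215 stable loci, with the line of equality. Red diamonds are the exons with under 10 skipping-only reads in all, which sit near a share of 1 at Psi from about 0.18 upwards, and every point lies above the line.

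The stable exons with most informative reads in their lowest library were those of Ldhb and Tnnt2. Ldhb, which encodes the heart form of lactate dehydrogenase, had at least 20155 informative reads per library at its 124 nt exon, with Psi of 0.84, 0.87, 0.90, 0.86 and 0.87. Only 1716 of its reads fitted skipping alone against 138333 for inclusion, and the groups overlapped in Psi. By read share they did not overlap, with 0.982 and 0.986 in Control and 0.991, 0.992 and 0.991 in STZ. Tnnt2 encodes cardiac troponin T, which ties troponin to tropomyosin on the thin filament, and its 9 nt exon is among the shortest here. Its Psi was 0.67 and 0.69 in Control and 0.75, 0.70 and 0.71 in STZ, so every STZ library was above both Control libraries by at least 0.01. The mean was higher by 0.04 on the Psi scale, which is no larger than the gap of 0.05 between STZ A and STZ B. Tnnt2 had 64033 inclusion-only and 18309 skipping-only reads, so both forms were well read. Bsg, the basigin gene, had 0.65, 0.72, 0.70, 0.65 and 0.68 at a 29 nt exon that matched no annotated exon by length.

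Srl and Rab11fip5 carry the longest stable exons that were deeply read. Rab11fip5 encodes an effector of the recycling-endosome GTPase Rab11, and Psi of its 2019 nt exon was 0.35, 0.32, 0.37, 0.35 and 0.33. Srl encodes sarcalumenin, a calcium-binding protein of the sarcoplasmic reticulum, and its 1311 nt exon had 0.10 and 0.12 in Control and 0.16, 0.19 and 0.20 in STZ. The Srl groups did not overlap, and the mean in STZ was 0.0733 higher. In both genes the read share was over 0.9 in each group while Psi was under 0.4.

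Very short exons add or remove only a few amino acids, and 14 of the 225 were 36 nt or shorter. The next sequences are shown because the whole difference between the isoforms can be read in them.
Phb2 6 nt, chr6:124666443-124666448, plus strand: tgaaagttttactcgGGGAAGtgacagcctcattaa
Tnnt2 9 nt, chr1:137746956-137746964, plus strand: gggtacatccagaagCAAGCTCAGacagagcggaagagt
Ptk2 9 nt, chr15:73042417-73042425, minus strand: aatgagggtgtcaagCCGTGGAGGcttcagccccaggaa
Cltc 21 nt, chr11:86514563-86514583, minus strand: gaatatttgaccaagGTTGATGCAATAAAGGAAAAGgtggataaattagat
Pecam1 23 nt, chr11:106523316-106523338, minus strand: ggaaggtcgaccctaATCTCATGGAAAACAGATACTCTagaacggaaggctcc
Clta 36 nt, chr4:44044272-44044307, plus strand: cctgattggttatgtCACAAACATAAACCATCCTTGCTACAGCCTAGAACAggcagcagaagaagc

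Of these 6 exons all but the Pecam1 exon have a length that is a multiple of 3. The Pecam1 exon is coding, so its inclusion shifts the reading frame. Ptk2 encodes focal adhesion kinase, and Psi of its 9 nt exon was 0.15, 0.13, 0.18, 0.17 and 0.14, low in every library. Cltc and Clta encode the heavy chain and a light chain of clathrin, the coat of endocytic vesicles. The Cltc exon had Psi of 0.36 and 0.39 in Control and 0.33, 0.29 and 0.28 in STZ, with no overlap and a mean difference of -0.075. The Clta exon had 0.26, 0.28, 0.33, 0.33 and 0.28, and the Clta groups met at 0.28. By read share the Clta difference had the opposite sign, with 0.870 and 0.785 in Control and 0.75, 0.725 and 0.782 in STZ, so its direction depends on the measure. The 6 nt exon of Phb2, a prohibitin of the inner mitochondrial membrane, had 0.43, 0.40, 0.48, 0.48 and 0.47, but 0 reads fitted skipping alone beside 295 for inclusion.

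Genes of the sarcomere, Z-disc and cytoskeleton held 9 stable exons among 29 intermediate ones (31.0%), in 6 genes that include Tnnt2, Add1, Ktn1, Dst and Ppp1r12a. Over all 972 intermediate exons the share was 23.1%, and the median spread was 0.23 in this list and 0.21 over all. Dst encodes dystonin, a linker of the cytoskeleton, and its 72 nt exon had 0.89, 0.89, 0.87, 0.81 and 0.80, lower in each STZ library. Ppp1r12a, the myosin phosphatase targeting subunit, had 0.83, 0.83, 0.87, 0.86 and 0.87 at its 168 nt exon, again without overlap.

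RNA-binding and splicing genes held 7 stable exons among 42 (16.7%), in Celf1, Clk4, Hnrnpd, Mbnl1, Ptbp3, Pum2 and Srrm2. The 223 nt exon of Mbnl1, a splicing factor of muscle, had Psi of 0.89, 0.87, 0.88, 0.86 and 0.82, where STZ C was lowest. That exon was matched to no coding transcript. The Mbnl1 54 nt exon, outside the set, had 0.10 in both Control libraries and 0.30, 0.24 and 0.26 in STZ (adjusted p = 0.01465 by the limma test described below). Srrm2, a scaffold of the spliceosome and of nuclear speckles, had 0.88, 0.90, 0.83, 0.85 and 0.86 at a 271 nt exon, lower in each STZ library. By read share its groups overlapped, with 0.973 and 0.978 in Control and 0.959, 0.980 and 0.979 in STZ. Pum2, which represses messages through sites in their tails, had the largest difference between group means in the set, shared with Rer1. Its 237 nt exon had 0.22 and 0.20 in Control and 0.31, 0.32 and 0.32 in STZ, a mean difference of 0.107. Celf1 had 0.32 and 0.31 in Control and 0.23, 0.22 and 0.23 in STZ at a 152 nt exon. Both genes therefore sit in the stable set with groups that are clearly apart, which the limit of 0.12 allows.

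The lists of ion-handling and mitochondrial genes held few intermediate exons. The calcium and ion transport list held 3 stable exons among 12 (25%), in Camk2d, Fxyd1 and Trpm4. Camk2d encodes the main calcium/calmodulin-dependent kinase of heart muscle, and Psi of its 89 nt exon was 0.82, 0.76, 0.79, 0.80 and 0.78, with equal group means. Trpm4, a calcium-activated cation channel, had 0.48, 0.49, 0.45, 0.51 and 0.50 on as few as 21 informative reads in a library. The mitochondrial list held 2 among 13 (15.4%), Ldhb and Uqcrh. It was written from general knowledge and leaves out Sirt3, Alkbh7 and Phb2, which also encode mitochondrial proteins and hold stable exons. Its share is thus of the listed genes only.

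Adhesion genes held 7 among 32 (21.9%): Adamts10, Arhgef7, Cd47, Dlg1, Git2, Pecam1 and Ptk2. Arhgef7 and Git2 encode partners in one complex at focal adhesions, and Psi of the Arhgef7 225 nt exon was 0.47, 0.55, 0.53, 0.55 and 0.49. The Git2 90 nt exon had 0.82, 0.88, 0.84, 0.77 and 0.89, and both had overlapping groups in Psi. By read share both exons were lower in each STZ library than in either Control library. Cd47, the surface protein that restrains phagocytosis, had 0.19, 0.16, 0.16, 0.15 and 0.12 at a 63 nt exon, with the groups meeting at 0.16.

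Signalling genes held 4 among 31 (12.9%), chromatin and transcription genes 7 among 50 (14%), membrane traffic genes 5 among 26 (19.2%) and ubiquitin genes 5 among 15 (33.3%). Casein kinase genes gave 2 of the signalling exons. The Csnk1a1 84 nt exon had Psi of 0.14, 0.13, 0.11, 0.12 and 0.10, and the Csnk1d 63 nt exon had 0.28, 0.33, 0.37, 0.37 and 0.39. In both the groups did not overlap, and the differences ran in opposite directions. Yap1, the transcriptional partner of the Hippo pathway, had 0.33, 0.42, 0.38, 0.35 and 0.38 at a 48 nt exon, and the STZ libraries lay between the Control libraries. Golga4, a golgin that tethers vesicles, had 0.82, 0.78, 0.72, 0.72 and 0.73 at its 84 nt exon, lower in each STZ library. Among the ubiquitin ligase genes, Rnf216 had 0.89, 0.85, 0.85, 0.86 and 0.88 at a 131 nt exon, with overlap, and Rnf14 had 0.78, 0.81, 0.77, 0.77 and 0.74 at a 152 nt exon, lower in each STZ library. Over all 9 lists, 49 of 250 intermediate exons were stable (19.6%).

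Besides App and Aplp2, 7 genes held at least 2 stable loci, among them Add1, Atxn2, Brd2, Ktn1, Mgrn1 and Mycbp2. Add1 encodes alpha-adducin, which caps actin and binds spectrin, and its 37 nt exon had Psi of 0.42, 0.40, 0.38, 0.43 and 0.43 while its 87 nt exon had 0.45, 0.41, 0.50, 0.42 and 0.46. The groups overlapped at both. Atxn2, an RNA-binding protein gene, had 0.31, 0.30, 0.25, 0.32 and 0.26 at a 54 nt exon and 0.18, 0.24, 0.30, 0.25 and 0.27 at a 169 nt exon. At the second, every STZ library was above both Control libraries. Mgrn1, an E3 ubiquitin ligase gene, had 0.53, 0.55, 0.56, 0.60 and 0.58 at a 66 nt exon and 0.72, 0.77, 0.71, 0.70 and 0.66 at a 45 nt exon. Its 2 exons thus differed in opposite directions, without overlap, by means of 0.04 and -0.055. Mycbp2, another E3 ligase gene, had as few as 20 informative reads at its 75 nt exon.

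The rule bounds the spread but does not require the groups to overlap. In 77 of the 225 exons (34.2%) all libraries of one group were above all of the other, 38 with STZ higher and 39 with STZ lower, where the share over all 4769 tested exons was 42.9%. The limma test (logit Psi, Benjamini-Hochberg adjusted p under 0.05 over all 4769 exons) called 12 stable exons (5.33%), 6 in each direction, and called 15% of all exons tested. The rule used this contrast, so nothing is read from either count. The 12 were in Celf1, Kars, Maz, Mettl22, Ppp1r12a, Pum2, Rer1, Rnf130, Rpain, Tfdp1, Ube2j1 and Zfp655. In the authors' deposited tables a Bayes factor of at least 10 stood in at least 1 of the 6 comparisons for 43 stable exons (19.1%) and for 34.2% of all tested exons. Over the set, STZ was higher in 104 exons, lower in 118 and equal in 3, with a median difference of -0.00333. No group difference exceeded 0.107. These separations are in Psi, and by read share the groups of some such exons overlapped, among them Emc10, Csnk1d, Rnf14 and the Atxn2 169 nt exon.

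Rer1 shows how large a relative change still counts as stable. It encodes a sorting receptor between the Golgi and the endoplasmic reticulum, and Psi of its 209 nt exon was 0.14 in both Control libraries and 0.24, 0.24 and 0.26 in STZ. The groups were apart by 0.10 at their nearest. Rnf130, a ring finger ligase gene, had 0.80 and 0.80 in Control and 0.84 in all 3 STZ libraries at a 94 nt exon, where the difference is small and each group was uniform to the second decimal. Rpain, an importin-binding gene, had 0.12, 0.13, 0.19, 0.22 and 0.23, but with 4 skipping-only reads beside 945 for inclusion.

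In several genes of the set, where the rule itself limits the spread of Psi, the reads on the event differed several-fold between the groups. The amount is given as reads of all 4 classes on the event, in RPM. The rule set no limit on the difference in this level between the groups. It did use part of the level, since its read limit applied to the informative reads of every library. Exons with fewer informative reads in any library could not enter the set, whatever the size of their difference in amount. Txnrd1, which encodes cytosolic thioredoxin reductase, had 29.6 and 29.4 in Control and 522.5, 201.0 and 172.5 in STZ, a 10.1-fold higher mean. All STZ libraries were above both Control libraries, and STZ A was the highest. Most of this rise was in reads that fit both isoforms or neither. Informative reads, not scaled to library size, were 164 and 218 in Control and 319, 192 and 165 in STZ. Psi of its 107 nt untranslated exon was 0.82, 0.81, 0.76, 0.75 and 0.70 over the same libraries. Il4ra, the interleukin-4 receptor gene, had 7.29 and 7.39 RPM in Control and 28.8, 53.6 and 57.0 in STZ (6.33-fold), with Psi of 0.15, 0.12, 0.15, 0.12 and 0.12 at a 114 nt exon. Nop56, a core protein of small nucleolar ribonucleoproteins, had 92.5 and 93.5 in Control and 391.5, 327.9 and 354.4 in STZ (3.85-fold). Its 283 nt exon had Psi of 0.84, 0.84, 0.81, 0.72 and 0.76, lower in each STZ library. By read share each STZ library was instead higher, with 0.940 and 0.939 in Control and 0.944, 0.952 and 0.947 in STZ. The direction for Nop56 therefore depends on the measure. The noncoding transcript 1110038B12Rik was 4.24-fold higher, with Psi of 0.88, 0.86, 0.89, 0.86 and 0.85.

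Brd2, which encodes a bromodomain protein that reads acetylated histones, joined both features. Levels on the event of its 301 nt exon were 175.3 and 191.5 RPM in Control and 792.3, 583.9 and 652.9 in STZ, 3.69-fold higher. Psi of that exon was 0.65, 0.66, 0.61, 0.61 and 0.65, with the groups meeting at 0.65. A second exon of Brd2, of 92 nt, had Psi of 0.22, 0.27, 0.22, 0.21 and 0.21. Both are annotated in transcripts marked for nonsense-mediated decay and in no coding transcript.

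Other genes had fewer reads in STZ. Mndal, an interferon-inducible gene with close relatives, had 237.0 and 160.7 RPM in Control and 32.7, 29.7 and 31.2 in STZ, 6.37-fold lower, with Psi of 0.27, 0.22, 0.29, 0.26 and 0.23 at a 120 nt exon. The steady ratio rested on as few as 21 informative reads. Chac2, of glutathione breakdown, was 5.04-fold lower in STZ, with Psi of 0.77, 0.83, 0.85, 0.77 and 0.83 at a 36 nt exon. Alkbh7, which encodes a mitochondrial dioxygenase, was 4.98-fold lower, with 0.78, 0.88, 0.86, 0.90 and 0.85. Sirt3, the main mitochondrial protein deacetylase gene, had 228.2 and 237.2 RPM in Control and 57.2, 63.7 and 61.5 in STZ, 3.83-fold lower. Psi of the Sirt3 162 nt exon was 0.82, 0.81, 0.81, 0.72 and 0.80, and the groups overlapped at 0.81. Srl was 3.59-fold lower in STZ, beside the higher Psi given earlier.

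Such differences in amount were as common in the stable exons as elsewhere: groups did not overlap in 162 of 225 (72%) and in 73% of all 4769 tested exons. The mean was at least 2-fold higher in STZ for 18 stable exons and at least 2-fold lower for 29, together 20.9%, and 24.5% for the other intermediate exons. In bulk tissue fewer cells of a type and less RNA per cell cannot be told apart. Of the endothelial markers only Pecam1 had an event, with 1396 to 1548 summed RPM in Control and 3107 to 5332 in STZ, and of smooth muscle markers only Myh11, with 49.6 to 56.4 and 110.6 to 181.3. The leukocyte markers Cd68 and Ptprc spanned 70.6 to 82.3 in Control and 58.6 to 132.0 in STZ, and 3 of 6 cardiomyocyte markers (Ryr2, Tnnt2 and Ttn) spanned 38724 to 40190 and 34034 to 42909. None of the 3 fibroblast markers had an event. The part of these cell types in the amounts or in Psi was not tested.

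**Figure D4:**
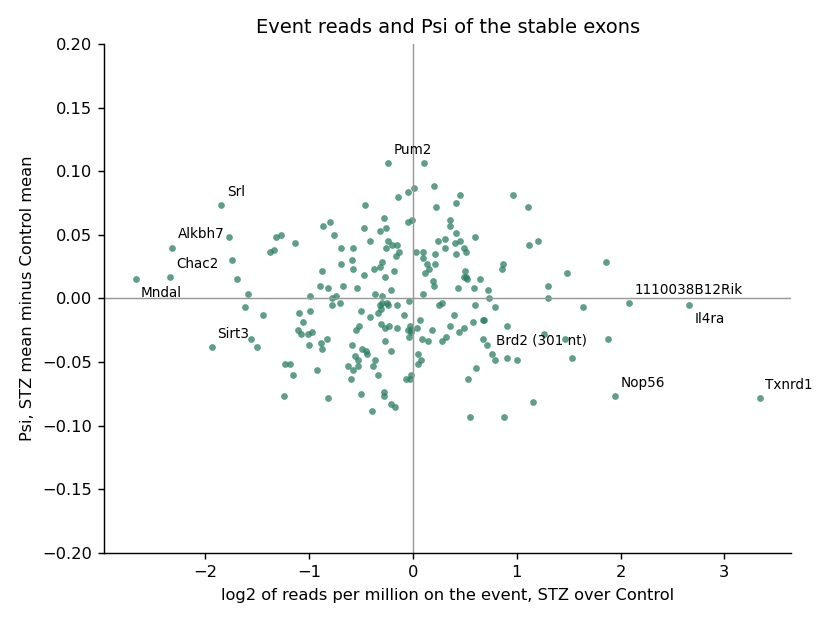
Difference of mean Psi, STZ minus Control (y axis), against the log2 ratio of RPM on the event, STZ over Control (x axis), for the 215 stable loci, 1 point each. Reads of all classes ran from 6.37-fold lower (Mndal) to 10.1-fold higher (Txnrd1). Psi differences were limited by the rule and were at most 0.107 in size. For Txnrd1 most of the rise was in reads that fit both isoforms or neither.

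A stable exon did not mean that the whole gene kept its splicing. Genes with a stable exon had 158 other tested exons that share no base with it, in 96 genes, and limma called 30 of them (19.0%), 14 higher and 16 lower in STZ, in 28 genes. Over all 4769 tested exons the share called was 15%. With Psi also moved by 0.20 or more, 11 were called (6.96%), against 5.98% of all exons. Where the whole event shared no base with that of a stable exon, 19 of 78 were called. Of the 30 calls, 8 were also made when either Control library was omitted, 18 when STZ A was, 13 when STZ B was and 11 when STZ C was. With Control A, Control B and then each STZ library omitted in turn, the calls among these exons came to 10, 11, 21, 15 and 15, other exons included.

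In Add1, the 279 nt untranslated exon had Psi of 0.10 and 0.11 in Control and 0.39, 0.40 and 0.43 in STZ (adjusted p = 0.00395 by limma), while its 37 nt and 87 nt exons were in the stable set. The Control libraries lay far below every STZ library. Pecam1 encodes CD31, an adhesion protein of endothelial cells, and both its exons encode parts of the cytoplasmic tail. The 57 nt exon had 0.52 and 0.53 in Control and 0.22, 0.22 and 0.23 in STZ (adjusted p = 0.00118 by limma), while the 23 nt exon printed among the short exons had 0.49, 0.45, 0.49, 0.52 and 0.46. By read share the 23 nt exon was less steady, with 0.681 and 0.645 in Control and 0.751, 0.816 and 0.770 in STZ, and its groups did not overlap. The Pecam1 events share flanking sequence, so their reads are not separate. R3hdm2, an RNA-binding gene, had 0.63 and 0.65 in Control and 0.34, 0.36 and 0.34 in STZ at a 102 nt exon (adjusted p = 0.00348 by limma), beside 0.29, 0.27, 0.37, 0.32 and 0.27 at its stable 54 nt exon. A 63 nt form of the same exon also fell, from a mean of 0.45 to 0.22 (adjusted p = 0.00855 by limma), and lost its call without either Control library (adjusted p = 0.0566 and 0.0532 by limma), where Control is 1 library and the difference of -0.23 was the same.

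Ktn1, the gene of kinectin, a membrane partner of the motor kinesin, showed all 3 behaviours. Its 72 nt exon rose from 0.65 and 0.68 in Control to 0.95, 0.96 and 0.95 in STZ (adjusted p = 0.00398 by limma). Its 87 nt exon had 0.86, 0.88, 0.90, 0.90 and 0.84, with overlap. Its 110 nt exon had 0.70, 0.72, 0.63, 0.60 and 0.65, with every STZ library lower and a spread that just met the limit. Pik3c2a, a phosphoinositide kinase gene, had 0.26, 0.20, 0.03, 0.03 and 0.03 at an 88 nt exon (adjusted p = 0.00705 by limma), on as few as 18 informative reads, beside 0.82, 0.85, 0.78, 0.82 and 0.89 at its stable 104 nt exon. Its events, like those of Git2 and Plpp1, share bases.

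The remaining exons of this kind lost their calls in some or all sets of 4 libraries, in which fewer libraries were tested and, without a Control library, the lone one is assumed to vary like the others. Their differences kept their direction and most of their size in every set. Huwe1, a large ubiquitin ligase gene, had 0.89, 0.86, 0.20, 0.13 and 0.32 at a 234 nt exon on as few as 10 informative reads (adjusted p = 0.0231 by limma), beside 0.37, 0.34, 0.46, 0.39 and 0.36 at its stable 132 nt exon. Leaving out any library but STZ C ended the Huwe1 call, with adjusted p from 0.0539 to 0.114 by limma and differences from -0.615 to -0.673. The Pcm1 135 nt exon (adjusted p = 0.0209 by limma) fell from a mean of 0.90 to 0.61 and lost its call without any 1 of the 5 libraries, with adjusted p from 0.0532 to 0.0779 by limma and differences from -0.27 to -0.315. The Tbp 204 nt exon (0.0253), the Git2 150 nt exon (0.0191) and the Plpp1 155 nt exon (0.0265) passed as adjusted p by limma and lost their calls in 4, 3 and 4 of the 5 sets of 4 libraries. Without single libraries adjusted p ran from 0.0616 to 0.12 for Tbp, from 0.0727 to 0.0877 for Git2 and from 0.0548 to 0.127 for Plpp1, among the sets that lost the call by limma.

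**Figure D5:**
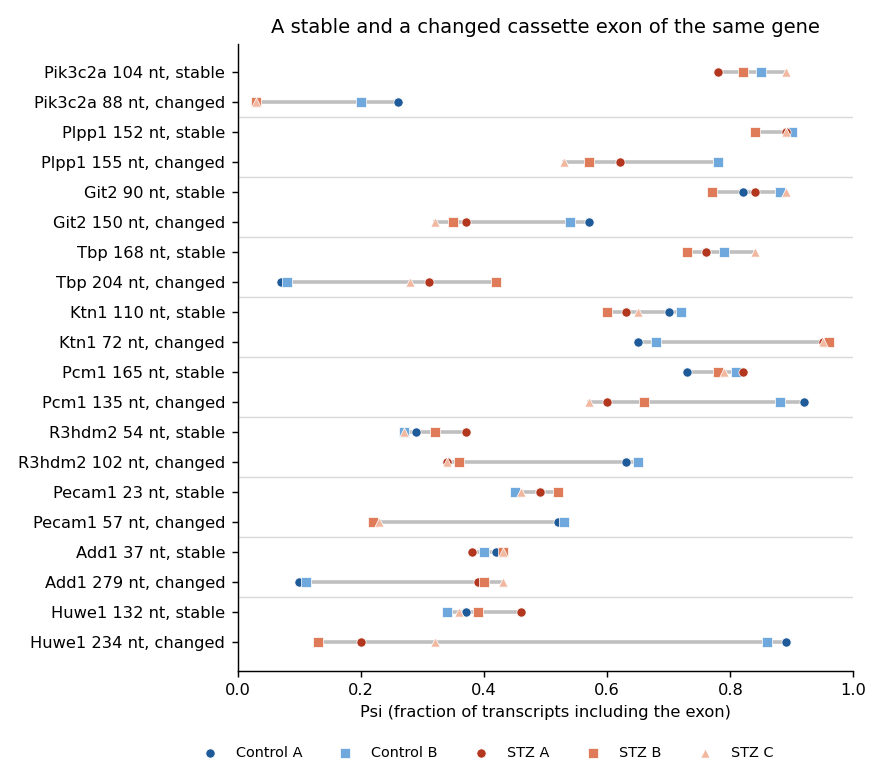
Psi (x axis) in the 5 libraries for 10 genes, each with an exon called changed by limma by at least 0.20 and, over it, a stable exon of the same gene. Points are libraries and grey lines join the lowest and highest. The Add1 279 nt exon runs from 0.10 to 0.43 and the Add1 37 nt exon from 0.38 to 0.43.

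In sequence and structure the stable exons resembled the other 747 intermediate exons in most measures, described here without a test. The median length was 120 nt against 108 nt, with 54.7% (123 exons) and 56.6% (423 exons) a multiple of 3. The median GC content was 50.1% against 50.6%. The upstream intron had a median of 1980 nt against 2257 nt, and the downstream intron 2446 nt against 1910 nt. Of the 206 stable exons that matched an annotated exon, 125 were coding (60.7%, against 62.7% of 695). Another 28 were classed as both coding and untranslated, 23 were untranslated and 18 lay in decay transcripts (8.74% against 5.90%). Of the coding exons, 84 of 125 (67.2%) kept the reading frame, against 318 of 436 (72.9%).

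By informative reads in the lowest library, the share of stable exons with a length that is a multiple of 3 was 41.3% from 20 to 49, 52.6% from 50 to 99, 53.4% from 100 to 199, 64.7% from 200 to 499 and 62.5% from 500. In the other intermediate exons it was 52.3%, 58.5%, 61.4%, 57.8% and 58.8% in the same bins, so the stable exons were below the others in the first 3 bins and above them in the last 2. Mean Psi was placed differently in the sets: 76 stable exons were under 0.3, 58 lay from 0.3 to 0.7 and 91 were over 0.7, so 25.8% were in the middle range against 67.1% of the others. A fixed limit on Psi is a looser limit on the odds of inclusion near 0.10 and 0.90, and its part in this difference was not tested. The middle range held stable exons of App, Aplp2, Add1, Mgrn1 and Arhgef7.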

How the data were processed

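Left ventricle RNA of 2 Control and 3 STZ libraries was sequenced, with reads handled by CASAVA 1.8.2 and TopHat on mm9, per the submitters' processing notes. The 6 deposited tables each compare 1 library with another and hold MISO output, per the file headers (MISO version, events and strand setting: not given in the sources used here). Psi, a posterior mean with 2 decimals, is a fraction in the deposited tables. The deposited read counts are raw, in 4 classes of a text field recorded as the unit other. The deposited Bayes factor is a ratio. The 36 other columns of values per library were not used. The members, gene lists and rules for naming exons were chosen with earlier results of these data known.

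Libraries held 12692236 to 20963751 reads of all classes on events. Exons took gene names from GENCODE M21 by the lengths of exon and flanking introns (206 stable exons), by the gene in the tables (7), by an overlapping named exon (6) or by the length of the skipping junction (2). For 3193 events the tables also named a gene, the same in 97.7%. Coding status and sequences come from the matched transcripts, and an mm9 sequence was not used here.

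The test of STZ against Control used limma 3.58.1 on logit Psi clipped to 0.01 to 0.99, for 4769 exons with at least 10 informative reads in every library, with a variance trend on log2 mean reads, two-sided, and Benjamini-Hochberg adjustment. It was tested on simulated data. Named exons are the 12 loci with the smallest spread, the 12 with most reads, up to 4 per gene list with most reads, the 5 whose reads rose most and the 5 whose reads fell most, the 3 just inside and the 3 just outside the limit, all genes with at least 2 loci, and up to 12 other exons of the same genes called with a change of at least 0.20. Slc44a2, the short exons, the called stable exons and the exons with few skipping reads were named after their values were seen. So were the App 57 nt exon and the Mbnl1 54 nt exon. The exons of 1 gene that these rules name are not reported here. Alternatives covered the read, Psi and spread limits, the logit scale, the read share, the clipping and each library left out.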

Additional observations from a re-analysis of the deposited data

How the results depend on the processing

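The count of 225 stable exons followed the limits. It was 485 with Psi from 0.05 to 0.95, 89 with Psi from 0.20 to 0.80 and 115 with a spread of at most 0.08. A logit spread of at most 0.5 gave 106, and the read share in place of Psi gave 116, of which 62 were in the set. It was 252 and 179 with at least 10 and at least 50 informative reads and 335 with a spread of at most 0.15. Without 1 library it ran from 296 to 330, since fewer values have a smaller spread. Requiring at least 10 reads of each isoform alone, an alternative added after the data were seen, left 203. Calls by limma over all tested exons were 713, from 482 to 966 under the settings with all libraries and from 282 to 467 without 1 library. Among other exons of genes with a stable exon there were 30 calls, 22 to 39 under those settings (20 to 28 of them among the 30) and 10 to 21 without 1 library (8 to 18 of them among the 30). For the named stable exons, 366 of 414 values of the group difference moved by less than the spread between replicates, and 48 moved by more. For the 11 other exons named for a change of at least 0.20, 83 of 108 values kept the direction and the call. Of these 108 values, 25 lost the call and 0 reversed. No paired analysis was possible because the library codes carry no replicate numbers. Exons with few reads and genes with close relatives limit what the set can show.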
